A study of Drosophila melanogaster with 4 samples.

Results

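Heads of male Drosophila melanogaster that had fasted for 24 h were profiled on 4 Affymetrix arrays, 1 for each labelled group, and the comparison described here sets the 2 arrays with the least Crtc signal against the other 2. The Crtc-low side holds the TORC mutant and the Rescue control, and the Crtc-expressing side holds the WT control and the TORC Neuronal resuce (spelled as in the label; called the neuronal rescue from here on). The labels name TORC, the CREB coactivator whose current gene symbol is Crtc, as the mutated and rescued gene. They do not say which part of the gene is altered, what genotype the Rescue control carries, what drives the neuronal rescue or how many flies were pooled. The Rescue control's place on the low side therefore rests on its Crtc signal. The arrays of a side come from different labelled groups and are not replicates of a condition, so no p-value is given, and an exact two-sided permutation test of 2 arrays against 2 could not go below 0.333. Of the 18952 probe sets on the array, 18769 are not controls, and 6940 of these had a signal of 50 or more on all 4 arrays.

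Crtc (also TORC) is a coactivator of CREB, the transcription factor that binds cAMP response elements. In its phosphorylated form the protein is held in the cytoplasm. After dephosphorylation it moves to the nucleus, binds CREB and raises the transcription of CREB target genes. In Drosophila it is known for its role in neurons during starvation and oxidative stress, and insulin-regulated SIK2 kinase phosphorylates it.

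Values are MAS5 signals, an array intensity on a linear scale, given throughout in the order TORC mutant, Rescue control, WT control, neuronal rescue. A difference is the mean log2 signal of the Crtc-low arrays minus that of the Crtc-expressing arrays, after raising signals under 14 to 14. The 2 values in parentheses after a difference are the log2 differences between the arrays of a side, first the Crtc-low side and then the Crtc-expressing side. A gene or probe set counts as higher or lower where the sides differed by at least 2-fold in the mean and the gap between them was larger than both of those within-side differences.

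Crtc itself gave 3.8, 6.7, 203.1 and 37.4. Both Crtc-low arrays lay below the floor of 14, so the expressing side was at least 6.23-fold higher, a difference of -2.64 (0.00 and 2.44) in which the 0.00 is fixed by the floor. The neuronal rescue, at 37.4, lay below 50 and 2.44 log2 units under the WT control, and the gap between the sides, 1.42, was smaller than that. Because the sides are named for this signal, it describes them and tests nothing.

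The 4 arrays differed in more than Crtc. Each had a 2% trimmed mean signal of 150, yet the median over the probe sets that are not controls was 19.8 and 20.6 on the Crtc-low arrays against 36.6 and 37.2 on the Crtc-expressing arrays. The share of these probe sets above 14 was 53.3% and 54.6% on the low side and 63.0% and 62.9% on the other. Many genes known from testis and the male accessory gland, tissues that a head does not hold, were dim on both Crtc-low arrays and bright on both Crtc-expressing arrays. The presence of these tissues and the Crtc side therefore cannot be told apart for any gene that they also express. Probe sets for Bacillus transcripts, which are added to a sample as controls, had a geometric mean of 44.0 and 45.2 on the mutant and WT control arrays and of 173 and 153 on the Rescue control and neuronal rescue arrays, so each side holds 1 array of each level. In whole heads, fewer cells of a type and less RNA per cell cannot be told apart.

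Among the 6940 probe sets at 50 or more on all arrays, 29 (0.418%) were higher on the Crtc-low side and 30 (0.432%) lower. Taking the brightest probe set of each gene, 5795 genes were at 50 or more on all arrays, of which 23 (0.397%) were higher and 24 (0.414%) lower. A 2-fold difference in the mean alone was met by 61 genes higher (1.05%) and 47 lower (0.811%), so 38 and 23 of these had a side whose own arrays differed too far. A 2-fold difference in the same direction both between the mutant and WT control arrays and between the Rescue control and neuronal rescue arrays, the pairs with like levels of added transcripts, was found for 17 genes higher (0.293%) and 15 lower (0.259%). For comparison, 78 genes (1.35%) differed by at least 2-fold between the Crtc-low arrays and 188 (3.24%) between the Crtc-expressing arrays. The median difference over these genes was 0.12 log2, with 5% of genes below -0.44 and 5% above 0.63, while the median difference between arrays of a side was 0.20 on the low side and 0.22 on the expressing side. Changes of single genes are to be read against this shift of 0.12. The sides did not overlap, at any size of difference, for 1984 genes (34.2%) with the low side higher and 664 (11.5%) with it lower, and after each array was centred on its median for 1170 (20.2%) and 1261 (21.8%). Counts of members without overlap below are to be read against these shares.

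The split between higher and lower depended on how the arrays were scaled. With the deposited scaling 49.2% of the 59 probe sets that met the rule were higher, with quantile normalization 61.8%, with each array centred on its median of the probe sets at 50 or more 22.6%, and with centring on photoreceptor, neuronal and glial genes 11.1%. Of the 23 genes higher, 9 met the rule after median centring and 3 after centring on head-cell genes. Of the 24 lower, all 24 did after median centring and 18 after centring on head-cell genes. No gene of the 47 turned direction under any of these.

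**Figure D1:**
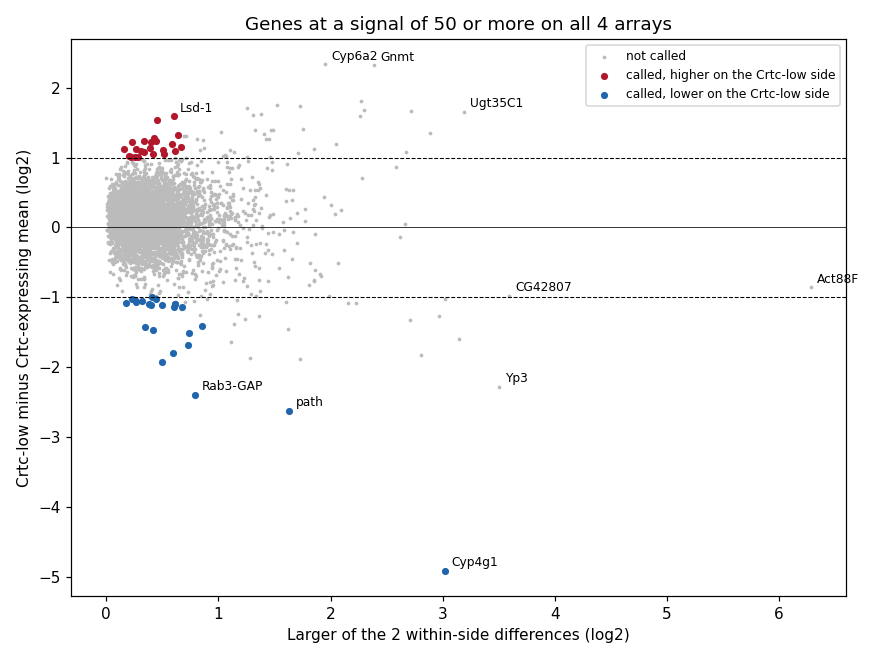
Difference between the sides (Crtc-low minus Crtc-expressing mean, log2) on the vertical axis against the larger of the within-side differences (log2) on the horizontal axis, for the 5795 genes at a signal of 50 or more on all 4 arrays. Coloured points are the 23 genes higher and 24 lower that met the rule, and Cyp4g1 is the lowest of them at -4.91.

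The plot of difference against within-side spread shows how few genes stood away from the spread. Most points lie near 0.12 on the vertical axis, and 61 of the 108 points above 1 or below -1 fail the condition on the within-side differences.

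The genes higher on the Crtc-low side included Lsd-1 and Jabba, which both encode proteins of the lipid droplet. Lsd-1, which encodes the droplet coat protein perilipin 1, had signals of 1658.3, 1369.6, 406 and 616.5, a difference of 1.59 (0.28 and 0.60) or 3.01-fold. Jabba, a droplet protein known for holding histones in embryos, gave 750.3, 526.7, 202.2 and 314.4 and a difference of 1.32 (0.51 and 0.64). For both genes each Crtc-low array lay above each Crtc-expressing array, and the WT control was the dimmest of the 4. After centring on head-cell genes neither met the rule, and after median centring Jabba did not. Another probe set of Jabba at 50 or more gave 500.2, 406.8, 168.6 and 218.5 and a difference of 1.23. Of the genes for lipid storage, synthesis and breakdown, 18 of 23 measured were at 50 or more, and of these Lsd-1 met the rule. Among the 18, 8 had no overlap with the low side higher and 3 with it lower (7 higher and 5 lower after median centring). The median was 0.20, with -0.03 to 0.13 under the other scalings, so its sign turned after centring on head-cell genes. Lsd-2 differed by 0.05 (0.30 and 0.06) and Seipin by -0.10 (0.03 and 0.01). At any brightness 1 gene of the list was higher by the rule and 2 lower, beside 0.376% and 9.2% of all genes. The 2 lower were FASN2, at -2.36 (0.00 and 0.92), and FASN3, at -3.78 (0.00 and 1.41), both at the floor on the Crtc-low arrays. In that list mdy, an acyltransferase that makes triglyceride, differed by 0.68 (0.24 and 0.14), and Agpat3, an enzyme of phospholipid and triglyceride synthesis, by 0.55 (0.04 and 0.62). The gene mag, a lipase of the gut, differed by -1.83 (0.82 and 2.81), with Crtc-expressing arrays so far apart that the sides came within 0.01 log2 units of each other.

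Genes of cuticle proteins also met the rule on the higher side. Cpr97Ea, a chitin-binding cuticle protein, gave 286.6, 354.4, 135.5 and 163.4, a difference of 1.10 (0.31 and 0.27). Cpr11B, Cpr62Bc and Cpr62Bb, further chitin-binding cuticle proteins that are named here after their values were seen, differed by 1.10 (0.21 and 0.61), 1.07 (0.30 and 0.34) and 1.02 (0.20 and 0.02). In all 4 genes both Crtc-low arrays were brighter than both Crtc-expressing arrays. Cpr62Bb and Cpr62Bc are neighbours in the RefSeq gene order. Of 104 cuticle protein genes measured, 52 were at the floor on all arrays and 19 were at 50 or more. These 4 of the 19 met the rule against 0.397% of all genes at 50 or more, 10 of the 19 had no overlap with the low side higher and 0 with it lower, and the median was 0.51, from 0.27 to 0.55 under the other scalings. None of the 4 met the rule after centring by either method, and Cpr97Ea alone did after quantile normalization. After median centring 9 of the 19 cuticle genes had no overlap with the low side higher and 0 with it lower. Among the dimmer cuticle genes the rule was met on the lower side by Cpr49Ab, at 9.1, 21.5, 113.7 and 50.6, a difference of -2.13 (0.62 and 1.17), and by Cpr51A, at 38, 34.4, 67.8 and 86.2, a difference of -1.08 (0.14 and 0.35), both named after their values were seen, and by 0 on the higher side. Cpr67Fb, at 32.8, 25.9, 73.6 and 289.1, differed by -2.32 (0.34 and 1.97) and did not meet it.

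Of the 15 Malpighian tubule and tracheal genes measured, 12 were at 50 or more, and 1 of these, verm, met the rule, with 7 without overlap with the low side higher and 2 with it lower (6 higher and 3 lower after median centring). The gene verm, a chitin deacetylase of the tracheal lining, had 590.1, 585.7, 316.9 and 271.7, a difference of 1.003 (0.01 and 0.22), and serp, a related deacetylase, had 767.5, 648.2, 432 and 300.9, a difference of 0.97 (0.24 and 0.52) that fell just short of 2-fold. The call of verm was lost after quantile normalization, after centring by either method, and without the mutant or the neuronal rescue array. In the same list obst-A and Gasp, which are chitin-binding proteins of cuticle and trachea, differed by 0.64 (0.38 and 0.60) and 0.62 (0.06 and 0.35). In the other direction the dimmer CG15406 of this list met the rule, at 7, 1.4, 46.3 and 29.9. Its difference was -1.41 (0.00 and 0.63), with both Crtc-low arrays at the floor. The gene ple, tyrosine hydroxylase, from the list of monoamine genes, which supplies DOPA for dopamine and for cuticle tanning, was dimmer and gave 84.6, 86.5, 32.5 and 44, a difference of 1.18 (0.03 and 0.44).

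The remaining genes among the 15 highest had varied roles. The gene mys, the main beta subunit of the integrins, had 380.1, 501.4, 191.7 and 184.4, a difference of 1.22 (0.40 and 0.06). The gene gol, a membrane-bound ubiquitin ligase, had 757.5, 766.3, 301.1 and 353.6, a difference of 1.22 (0.02 and 0.23). The gene mld, a zinc finger factor needed for ecdysone synthesis in the larva, had 216.8, 175.9, 93.5 and 69.8, a difference of 1.27 (0.30 and 0.42). In these 3 genes the arrays of each side lay close together beside the gap between sides. Cadps, which primes dense-core vesicles for calcium-triggered release, had 729.3, 670.2, 387.8 and 272.9, a difference of 1.10 (0.12 and 0.51). The brightest of the 15 was CG34227, at 6563.6, 5403.6, 2369.9 and 3099.4, a difference of 1.14 (0.28 and 0.39). The other genes, CG13056, CG13676, CG12567, CG3857, CG5853, CG17211 and CG31729, have numbers for names, and their differences ran from 1.11 to 1.54. Other probe sets at 50 or more were at hand for 3 of these genes: mys gave 0.90, Cadps 0.37 and gol 0.11, against 1.22, 1.10 and 1.22 for the brightest probe sets. The probe set read for mys may bind other transcripts, and that read for CG3857 several transcripts.

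**Figure D2:**
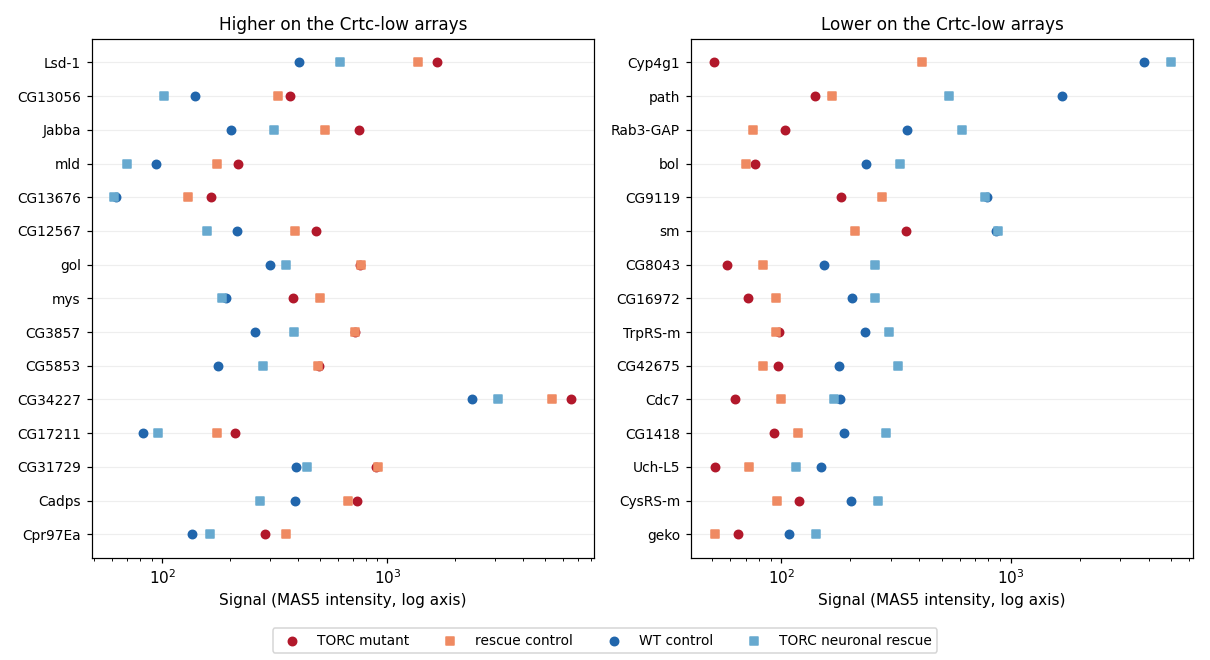
MAS5 signal (log axis) of the 15 highest and the 15 lowest genes that met the rule, with 1 point for each of the 4 arrays. The Crtc-low arrays lie to the right of the Crtc-expressing arrays in the first panel and to the left of them in the second, with the widest step for Cyp4g1.

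The lowest gene on the Crtc-low side was Cyp4g1, the P450 enzyme of the oenocytes that makes cuticular hydrocarbons. Its signals were 50.7, 411.7, 3795.9 and 4984.5, a difference of -4.91 (3.02 and 0.39) or 30.1-fold. The smallest fold between an array of one side and an array of the other was 9.22, larger than the 8.12-fold step between the Crtc-low arrays. Other oenocyte genes were lower too. FASN3, a fatty acid synthase of these cells, had 4.9, 12.3, 118.2 and 314.1, a difference of -3.78 (0.00 and 1.41) that passes through the floor on both low arrays. Over the 14 oenocyte hydrocarbon genes measured, 5 were lower by the rule at any brightness (Cyp4g1, FASN2, FASN3, Elo68alpha and CG9458) and 0 higher, and the median signals were 5.3, 12.25, 59.6 and 90.5. At 50 or more on all arrays there were 4, and bond and Desat1 did not move with Cyp4g1, at -0.12 (0.08 and 0.28) and -0.08 (0.33 and 0.22). The remaining gene, app, differed by 0.57 (0.02 and 0.07). It is counted among the 14, though its tie to hydrocarbon synthesis was not checked. Oenocytes lie in the abdomen of the adult fly, and many male accessory gland and testis genes split the arrays in the same way. The part of such tissues in these values was not tested.

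Next came path, an amino acid transporter of the SLC36 family, at 140.5, 167.2, 1669.8 and 538.2, a difference of -2.63 (0.25 and 1.63), and Rab3-GAP, a regulator of the synaptic vesicle GTPase Rab3, at 103.6, 75.2, 353.7 and 612.9, a difference of -2.40 (0.46 and 0.79). Both Crtc-low arrays were dimmer than both others, by at least 3.22-fold for path and 3.41-fold for Rab3-GAP. The RNA-binding protein smooth (sm) had 348.6, 210.6, 860.5 and 880.6, a difference of -1.68 (0.73 and 0.03). CG9119, a gene without a given role, had 182.5, 275.2, 789.9 and 771.7, a difference of -1.80 (0.59 and 0.03). In sm and CG9119 the Crtc-expressing arrays gave nearly the same signal.

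Boule (bol), an RNA-binding protein needed for meiosis in the male germ line, had 76.5, 70.1, 233.3 and 329.8, a difference of -1.92 (0.13 and 0.50). It is on the list of testis genes. Its probe set can bind several transcripts, and its other probe sets were dim: one gave 33.2, 39.1, 46.4 and 15.2 and the other was at the floor on all arrays. The gene orb2, a translation regulator known from memory and from sperm development, is named after its values were seen and had 129.6, 84.9, 212 and 235.1, a difference of -1.09 (0.61 and 0.15). Of the 24 lower genes, 17 were brighter in the neuronal rescue than in the WT control, as were 13 of the 23 higher genes and 43.3% of all genes at 50 or more. Of the 30 testis genes measured, 10 were at the floor on both Crtc-low arrays and at 50 or more on both Crtc-expressing arrays. These 10 were brighter in the neuronal rescue than in the WT control by a median of 0.97 log2 units.

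A further 4 of the lower genes encode mitochondrial proteins, a grouping made after their values were seen. The share of such genes among all genes at 50 or more was not counted, so the 4 say nothing about mitochondrial genes as a set. Tom70 did not meet the rule after quantile normalization or without the neuronal rescue, and CysRS-m did not without the Rescue control or the neuronal rescue. TrpRS-m, which charges the mitochondrial tryptophan tRNA, had 98.2, 95.1, 231.1 and 294.3, a difference of -1.43 (0.05 and 0.35). CysRS-m, its counterpart for cysteine, had 119.9, 96.3, 201.2 and 265.2, a difference of -1.10 (0.32 and 0.40). Tom70, a receptor for import into mitochondria, had 91, 90.1, 170.3 and 203.6, and Sardh, the mitochondrial enzyme that oxidises sarcosine, had 138.3, 155, 329.8 and 292.6, with differences of -1.04 (0.01 and 0.26) and -1.09 (0.16 and 0.17). The genes of the mitochondrial ribosome gave differences under 2-fold: all 69 of 69 measured genes were at 50 or more, 0 met the rule, 10 had no overlap with the low side higher and 20 with it lower, and the median was -0.07, from -0.30 to -0.04 under the other scalings. After median centring 36 of the 69 had no overlap with the low side lower and 2 with it higher, beside 21.8% and 20.2% of all genes. Among these mRpS26 differed by -0.70 (0.50 and 0.14), mRpS31 by -0.65 (0.12 and 0.76) and mRpS6 by -0.54 (0.17 and 0.08).

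The remaining genes of the 15 lowest were Cdc7, Uch-L5, geko, CG8043, CG16972, CG42675 and CG1418. Cdc7, the kinase that fires replication origins, had 62.6, 100.1, 179.9 and 170.2, a difference of -1.14 (0.68 and 0.08). Uch-L5, a deubiquitinase of the proteasome, had 51.2, 72.2, 149.1 and 115.5, a difference of -1.11 (0.50 and 0.37). The gene geko, known from olfactory behaviour, had 64.9, 51.6, 108.5 and 141.1, a difference of -1.10 (0.33 and 0.38). All 3 lay close to 50 on a Crtc-low array. The numbered genes differed by -1.51, -1.47, -1.42 and -1.14. At the threshold itself the values ran on without a break: the 6 genes just inside lay between 1.003 and 1.05 on the higher side and between -1.07 and -1.003 on the lower, and the 6 just outside between 0.94 and 0.98 and between -0.98 and -0.91.

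Pdf, the neuropeptide through which the lateral clock neurons keep daily rhythm, had 219.9, 187.1, 434.7 and 394.5, a difference of -1.03 (0.23 and 0.14). Both Crtc-low arrays lay below both Crtc-expressing arrays, and the arrays of each side lay close together. The other clock genes gave differences under 2-fold: 13 of 15 measured were at 50 or more, Pdf was the one that met the rule, 6 had no overlap with the low side higher and 1, Pdf, with it lower (4 higher and 2 lower after median centring), and the median was 0.30, from 0.06 to 0.25 under the other scalings. Within it vri, cyc and tim, a repressor, an activator and a light-sensitive repressor of the clock, differed by 0.53 (0.12 and 0.16), 0.53 (0.20 and 0.35) and 0.53 (0.64 and 0.51), and Pdp1, an activator, by -0.83 (0.06 and 1.80). Of the 20 (of 29 measured) neuropeptide genes of the head at 50 or more, 6 had no overlap with the low side higher and 5 with it lower (5 higher and 5 lower after median centring), around a median of 0.06 whose sign turned under both centrings. CCHa2, a nutrient-linked peptide of fat body and gut, had 1907, 2137.6, 248.3 and 1627.9, a difference of 1.67 (0.16 and 2.71) that did not meet the rule, since the WT control alone was dim. Proc, proctolin, differed by -1.39 (1.14 and 1.08) and did not meet it either.

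CREB and cAMP signalling, the pathway in which Crtc acts, gave small values. Of the 13 (of 18 measured) genes at 50 or more, 0 met the rule in either direction, 3 had no overlap with the low side higher and 1 with it lower (0 higher and 4 lower after median centring), and the median was 0.09 beside 0.12 over all genes. Under the other scalings it ran from -0.14 to 0.08, so its sign turned under both centrings. The gene with no overlap on the lower side was kay, the fly Fos, a bZIP factor, at 249.3, 251.7, 348.7 and 416.4, a difference of -0.61 (0.01 and 0.26). Adgf-A, an adenosine deaminase, differed by -0.49 (0.45 and 0.82), dnc, the cAMP phosphodiesterase, by 0.44 (0.05 and 0.996), rut, an adenylyl cyclase, by 0.29 (0.30 and 0.56), and Atf-2, a bZIP factor that binds related elements, by 0.26 (0.21 and 0.01). The kay arrays of each side lay close together, and the other 4 differed by less than 2-fold.

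The list of gluconeogenesis and glycolysis and that of insulin, AKH and FOXO fasting genes held 0 members at 50 or more on all arrays that differed by 2-fold. For gluconeogenesis and glycolysis 12 of 15 measured genes were at 50 or more and 0 met the rule, with a median of 0.13, from -0.11 to 0.04 under the other scalings, so its sign turned under both centrings. Among them PCB, pyruvate carboxylase, differed by 0.35 (0.03 and 0.20) and Hex-A, a hexokinase, by 0.35 (0.35 and 0.33). Of the 13 (of 18 measured) insulin, AKH and FOXO fasting genes at 50 or more, 0 met the rule. Among them sug, a sugar-regulated zinc finger factor, was the one farthest out at 0.89 (0.63 and 0.13). Below 50 on some array, tobi met the rule, at 3.3, 17, 549.8 and 135, a difference of -4.14 (0.28 and 2.03). It is also on the list of glycogen, trehalose and sugar digestion, where 5 of 20 measured genes were lower by the rule and 0 higher, beside 9.2% and 0.376% of all genes. These 5 were tobi and the maltase genes Mal-A2, Mal-A4, Mal-A7 and Mal-A8, all below 50 on both Crtc-low arrays. At 50 or more were 9 genes of that list, of which 0 met the rule, 3 had no overlap with the low side higher and 0 with it lower. Their median was 0.14, from -0.10 to 0.06 under the other scalings. Ilp2, an insulin-like peptide of the brain, had 410.7, 389.6, 308.2 and 285.4, a difference of 0.43 (0.08 and 0.11) with no overlap between the sides.

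Several metabolic genes differed by more than 2-fold in the mean without meeting the rule. Pepck2, a phosphoenolpyruvate carboxykinase, lay just under 50 on the WT control array and had 3225.8, 1248.7, 49 and 434.7, a difference of 3.78 (1.37 and 3.15). Gnmt, glycine N-methyltransferase, had 3839.7, 3727.1, 331.3 and 1733.8, a difference of 2.32 (0.04 and 2.39). Lsp2, a larval serum storage protein, had 8764.8, 8792.7, 1139 and 5511.5, a difference of 1.81 (0.00 and 2.27). Ugt35C1, a UDP-glycosyltransferase, had 669.3, 711.9, 72.7 and 663.6, a difference of 1.65 (0.09 and 3.19). In these 4 genes the WT control was the low array, and the neuronal rescue lay nearer to the Crtc-low arrays than to it. Cyp6a2, a detoxifying P450 enzyme, had 1695.6, 1229.9, 145.6 and 562.1, a difference of 2.34 (0.46 and 1.95), and Ahcy, which hydrolyses S-adenosylhomocysteine, differed by 1.04 (0.09 and 1.06). The fasting-linked fat body gene fit had 264.5, 151.4, 69.1 and 99.7, a difference of 1.27 (0.80 and 0.53), in which the spread of the Crtc-low arrays was the larger one. Of the 13 (of 15 measured) fat body storage and carrier genes at 50 or more, 0 met the rule, with a median of 0.20 that ran from -0.03 to 0.13 under the other scalings and so turned sign after centring on head-cell genes. Of the 12 methionine and one-carbon genes, all at 50 or more, 1, Sardh, met it.

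TotC, a humoral stress peptide of the Turandot family, showed the widest step among genes higher on the Crtc-low side outside those at 50 or more on all arrays. It had 538.1, 307.8, 28.8 and 18.8, a difference of 4.13 (0.81 and 0.62) or 17.5-fold, and it was 1 of 22 such genes. Its signal was above 300 on both Crtc-low arrays and below 30 on both others. Of 5 Turandot genes measured, TotC was the 1 that met the rule. TotB and TotF were at the floor on all arrays, and TotZ and TotE, near it, differed by 0.12 and -0.16. The JAK-STAT ligand genes upd1 and upd2 were also at the floor on all arrays. Stat92E, the transcription factor of the JAK-STAT pathway, gave 2044.1, 1644.3, 866.2 and 1205.5, a difference of 0.84 (0.31 and 0.48) with no overlap and under 2-fold.

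Immune genes at 50 or more on all arrays were mostly higher in the mean, with wide spread. Of the 6 (of 14 measured) antimicrobial peptides and immune effectors at 50 or more, 0 met the rule, 4 had no overlap with the low side higher and 0 with it lower, and the median was 0.75, from 0.52 to 0.71 under the other scalings. After median centring 1 of the 6 had no overlap. DptB, a diptericin, had 1491.9, 4292.9, 474.5 and 1198.7, a difference of 1.75 (1.52 and 1.34). Mtk, metchnikowin, differed by 1.26 (1.01 and 1.45), and Drs, drosomycin, by 0.93 (0.19 and 1.48). In the other direction, Drsl5 differed by -0.52 (0.39 and 2.06) and the dimmer Drsl4 by -1.05 (0.06 and 4.01). Over all 14 effectors measured the median was 0.18. Of the 12 (of 15 measured) peptidoglycan recognition and immune signalling genes, 0 met the rule, 5 had no overlap with the low side higher and 0 with it lower (2 higher and 0 lower after median centring), and the median was 0.40, from 0.17 to 0.48. PGRP-SB1, a secreted peptidoglycan amidase, had 1854.8, 3004, 768.9 and 1177.5, a difference of 1.31 (0.70 and 0.61). In DptB, Mtk and PGRP-SB1 the arrays of a side differed by at least as much as the gap between the sides. Of the 9 (of 14 measured) haemocyte genes, 6 had no overlap with the low side higher and 0 with it lower (4 higher and 0 lower after median centring), and crq, a scavenger receptor, differed by 0.70 (0.21 and 0.15).

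**Figure D3:**
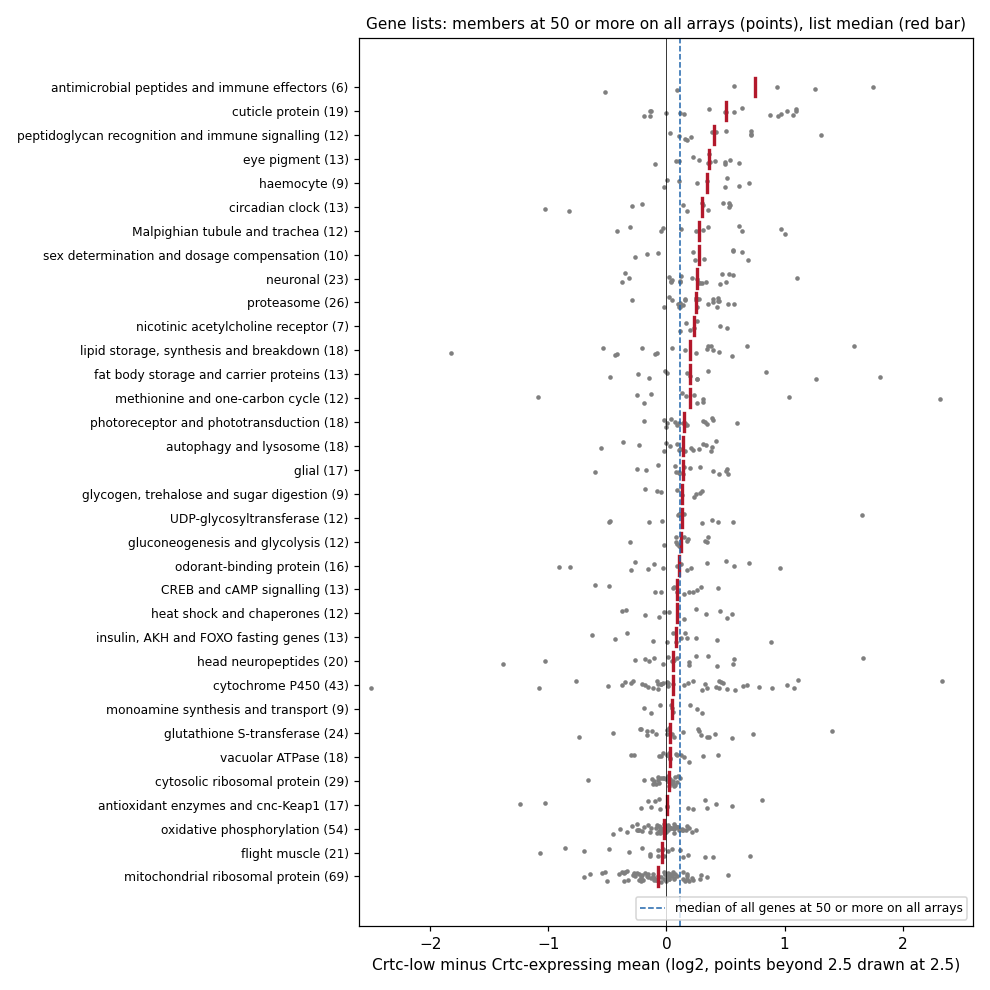
Difference between the sides (log2, Crtc-low minus Crtc-expressing; values beyond 2.5 are drawn at 2.5) for the members at a signal of 50 or more on all arrays of each gene list that has at least 6 of them, with 1 point a gene and a bar at the list median. Most of the medians drawn lie within 0.30 of the all-gene median of 0.12, and those of the cuticle proteins (0.51) and the immune effectors (0.75) lie farther to the right.

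The large sets of housekeeping genes held 0 members at 50 or more that met the rule. Of the 29 (of 34 measured) cytosolic ribosomal protein genes, 54 of 74 oxidative phosphorylation genes and 18 of 31 vacuolar ATPase genes at 50 or more, 0 met the rule, and their medians were 0.02, -0.02 and 0.03. After centring on head-cell genes these were -0.21, -0.25 and -0.21, so the sign of the first and the last turned. Counts without overlap were 2 higher and 1 lower for the ribosomal, 4 and 3 for the oxidative phosphorylation and 5 and 1 for the vacuolar ATPase genes, and after median centring 0 and 8, 0 and 17, and 1 and 6. Below 50 on some array, 15 oxidative phosphorylation, 6 proteasome, 4 vacuolar ATPase and 3 cytosolic ribosomal protein genes were lower by the rule and 0 higher. Measured were 74, 40, 31 and 34, and of all genes 9.2% were lower and 0.376% higher. The largest differences of these lists were those of COX4L (0.9, 1.7, 169.6 and 331.4), Prosalpha6T (0.9, 6.9, 49.3 and 110.1), Vha68-3 (5.6, 2, 92.2 and 168.8) and RpL10Aa (2.7, 1.3, 87.2 and 151.4). All of these were at the floor on both Crtc-low arrays, as many testis genes were. At 50 or more, 26 of 40 proteasome genes gave 15 with no overlap with the low side higher and 0 lower (6 higher and 1 lower after median centring), and a median of 0.25, from 0.01 to 0.19 under the other scalings. Within them Rpt3 and Rpn11, subunits of the regulatory particle, differed by 0.57 (0.03 and 0.01) and 0.52 (0.16 and 0.20). Of the 18 (of 19 measured) autophagy and lysosome genes, 9 had no overlap with the low side higher and 1 lower (6 higher and 1 lower after median centring), with a median of 0.14 that turned sign after centring on head-cell genes. The kinase Atg1 and its partner Atg13 differed by 0.39 (0.22 and 0.03) and 0.42 (0.08 and 0.00).

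Marker genes of the cells that make up the head were read next. Of the 23 (of 28 measured) neuronal genes at 50 or more, 1, Cadps, met the rule, with a median of 0.26. The 18 (of 20 measured) photoreceptor genes and the 17 (of 19 measured) glial genes at 50 or more gave 0 that met it, with medians of 0.15 and 0.14, and the 13 (of 15 measured) eye pigment genes 0 with a median of 0.36. Across the other scalings these ran from 0.02 to 0.26 for neuronal, -0.08 to 0.05 for photoreceptor, -0.10 to 0.11 for glial and 0.12 to 0.32 for eye pigment genes. The photoreceptor and glial medians turned sign when the arrays were centred on these lists. In flight muscle, 21 of 23 genes were at 50 or more, 0 met the rule, and the median was -0.03. Act88F, the flight muscle actin, had 87.4, 6806.6, 3116.1 and 626.5, a difference of -0.86 (6.28 and 2.31), and the 6.28 between the Crtc-low arrays is the widest within-side difference of any gene at 50 or more. Of 165 odorant, gustatory and ionotropic receptor genes, 145 were at the floor on all arrays and 0 reached 50 on all of them. Sex determination and dosage compensation genes were at 50 or more in 10 of 12, and 0 met the rule.

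**Figure D4:**
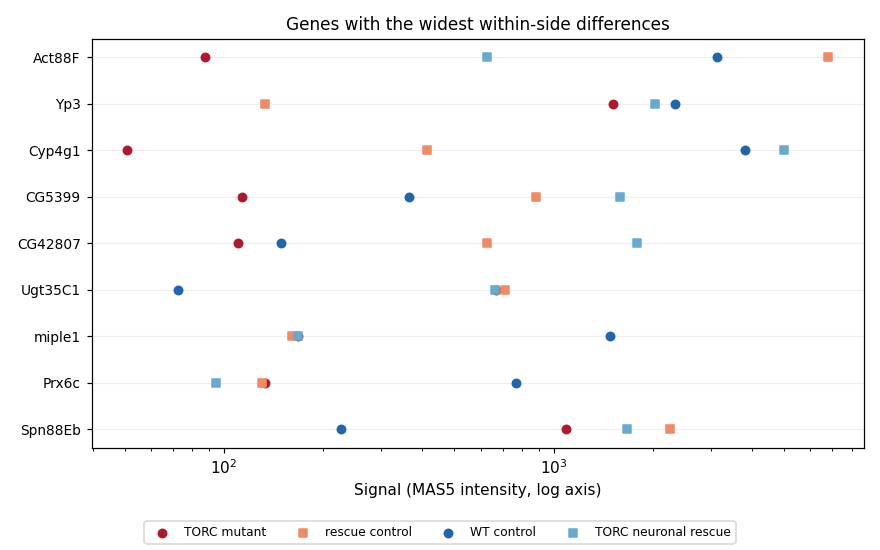
MAS5 signal (log axis) on each of the 4 arrays for the 5 genes with the widest within-side difference on each side, at 50 or more on all arrays. Act88F spans 87.4 to 6806.6 between the Crtc-low arrays, and CG42807 spans 148.6 to 1793.7 between the Crtc-expressing arrays.

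The plot of the widest within-side differences shows how far arrays on one side could stand apart. On the low side these genes were Act88F, Yp3, Cyp4g1, CG5399 and CG42807, and on the expressing side CG42807, Ugt35C1, miple1, Prx6c and Spn88Eb. Yp3, a yolk protein, had 1508.1, 133, 2338.5 and 2033.5, a difference of -2.28 (3.50 and 0.20). Both Crtc-low arrays lay under both others, the Rescue control by far the most. The gene miple1, a heparin-binding growth factor, had 167.4, 161.3, 1482.2 and 167.2, and Prx6c, a peroxiredoxin, had 133.3, 130.2, 766.6 and 94.3. In these 2 genes the WT control was high and the neuronal rescue matched or fell under the Crtc-low arrays.

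Over all 18769 probe sets, 62 (0.33%) were higher on the Crtc-low side and 1222 (6.51%) lower. By gene, with 11982 genes measured, 45 (0.376%) were higher and 1102 (9.2%) lower, and for 912 of the lower genes both Crtc-low arrays were at the floor, so the difference is a lower bound and the within-side difference of 0.00 is fixed by it. The 2-fold difference within both pairs of arrays with like added transcripts was met by 35 genes higher (0.292%) and 1097 lower (9.16%). Genes at the floor on both Crtc-low arrays and at 50 or more on both Crtc-expressing arrays numbered 524 (4.37%), and in the reverse direction there were 0 (0%), a count that has no test behind it. Of the 524, 499 were brighter in the neuronal rescue than in the WT control. Names that are only a CG or CR number were carried by 364 of them (69.5%), against 32.1% of the genes at 50 or more on all arrays. These 2 sets differ in brightness, and the share over all 11982 genes, from which the 524 came, was not counted.

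The 8 largest of these bounds were led by proteins of the male tract. Ebp, the ejaculatory bulb protein that forms the mating plug, had 9.2, 6.1, 3097.8 and 3032.8 and was at least 219-fold lower on the Crtc-low side. Acp98AB, an accessory gland peptide, had 1, 4.2, 2911 and 3124.9 and was at least 215-fold lower, and EbpII, a relative of Ebp, had 1.1, 6.1, 2800.9 and 3191.8 and was at least 214-fold lower. No Crtc-low array rose above 14 for these 3 genes. The other 5 were CG17376 (at least 159-fold), Mst57Da (at least 135-fold), CG10252 (at least 105-fold), lncRNA:CR9284 (at least 97.4-fold) and Acp53C14b (at least 96.3-fold).

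As a list, 23 accessory gland and ejaculatory tract genes had median signals of 3.5, 4.2, 561.1 and 642.1, and 21 were lower by the rule. At the floor were 17 on both Crtc-low arrays and 0 on both Crtc-expressing arrays. The 2 that did not meet the rule were at 50 or more on every array. EbpIII, known from the ejaculatory bulb, had 7725.1, 7644.3, 7925 and 8165.1, a difference of -0.07 (0.02 and 0.04), and Obp56g, an odorant-binding protein family member, had 2655.2, 1024.2, 3107.1 and 3102.7, a difference of -0.91 (1.37 and 0.00). The 30 testis and sperm genes had medians of 4.4, 10.5, 94.6 and 152.8, and 17 were lower by the rule, beside 9.2% of all genes. At the floor were 20 on both Crtc-low arrays and 5 on both Crtc-expressing arrays, with 4 at the floor on all arrays. The share of all genes at the floor on both Crtc-low arrays was not counted, and 53.3% and 54.6% of probe sets lay above 14 there. The 23 gut digestive enzymes had medians of 1.8, 19.5, 81.9 and 29.6, and 2 were lower by the rule. Of the 17 yolk, female germ line and eggshell genes, 0 met the rule. The yolk protein genes, which the female fat body is known to express at high level, were bright on 3 of the 4 arrays of these male heads: Yp1 had 4616.7, 17.6, 3234.6 and 4523.7, within-side differences of 8.04 and 0.48, and Yp2 had 2175.4, 14.8, 727.3 and 1235.2, within-side differences of 7.20 and 0.76. Both lay near the floor on the Rescue control array alone, which does not follow the sides, and signals this high are at odds with what is known of males. Leaving out the genes of these 4 lists changed the counts little: 29 probe sets were higher and 29 lower at 50 or more, and 62 and 1182 over all probe sets. These lists cover 26 of the 524 genes (testis, accessory gland and gut), so most of the 524 lie outside them, and what tissue those come from was not tested.

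**Figure D5:**
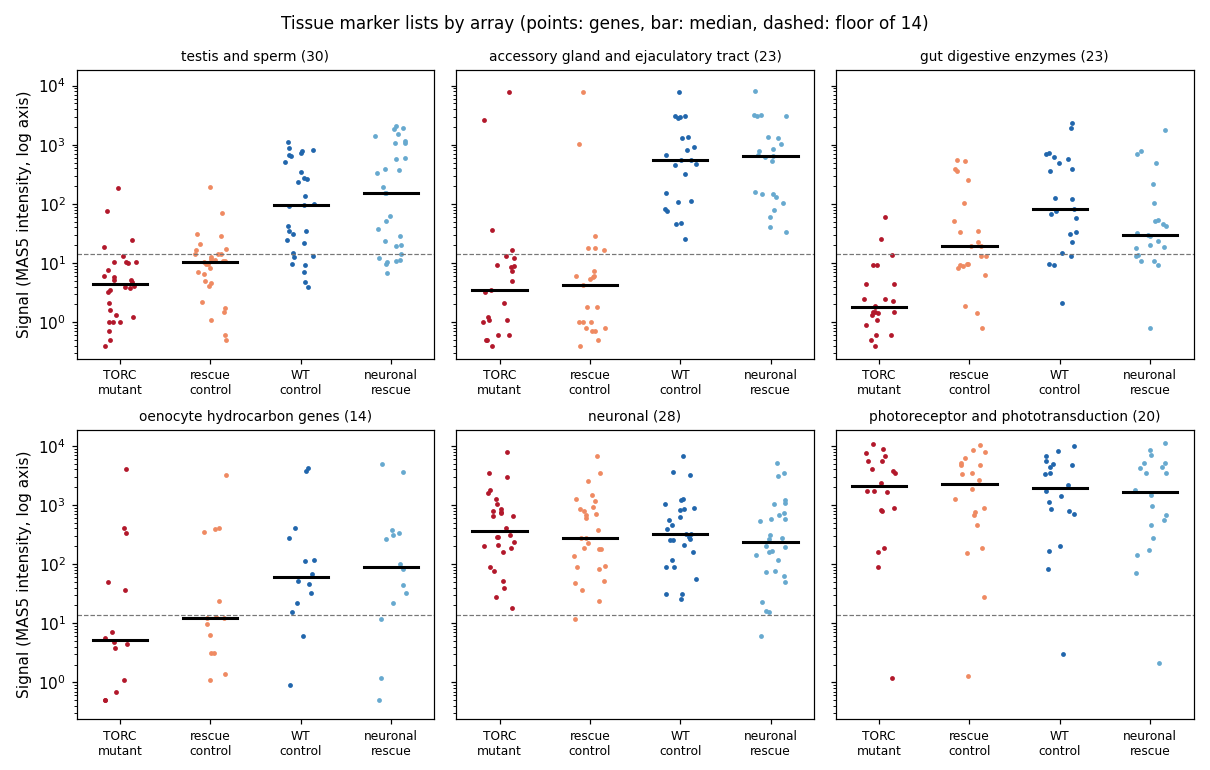
MAS5 signal (log axis) on the 4 arrays of the genes of the testis, accessory gland, gut, oenocyte, neuronal and photoreceptor lists. Each gene is 1 point, with a bar at the median and a dashed line at the floor of 14. Accessory gland medians step from 3.5 and 4.2 on the Crtc-low arrays to 561.1 and 642.1 on the Crtc-expressing arrays. Neuronal medians, at 357.2, 272.7, 318.3 and 236.1, and photoreceptor medians, at 2057, 2256, 1968 and 1652, show no such step.

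Genes next to Crtc in the RefSeq gene order were chosen for description after their values had been seen. Of 10 genes on each side, 13 were measured and 7 were at 50 or more on all arrays. Pep, a zinc finger protein of active chromatin, had 685.3, 720.6, 395.9 and 349.4, a difference of 0.92 (0.07 and 0.18) with a gap of 0.79 between the sides, just under 2-fold. The other 6, anchor, CG7497, Krn, CG7484, Ccn and Adgf-A, differed by between -0.49 and 0.33. Among the dimmer neighbours Adgf-B met the rule on the lower side, beside 9.2% of all genes. It had 0.5, 1.6, 36 and 45.5, a difference of -1.53 (0.00 and 0.34), with both Crtc-low arrays at the floor. The alleles behind these arrays are not given in the sources used here, and whether they reach these neighbours was not tested.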

How the data were processed

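RNA from heads of fasted male flies, 1 extract an array as far as the labels say, was hybridised to 4 Affymetrix Drosophila arrays. The deposited values are MAS5 signals, an array intensity that the authors computed and scaled to a 2% trimmed mean of 150 (the tool per the submitters' processing notes, its version not given in the sources used here, the scaling read from the values). The build behind the array's annotation is not given in the sources used here, so no coordinates are printed. Signals were raised to 14, and log2 of the deposited intensity was averaged over the 2 arrays of a side. The sides came from each array's label and the rule on Crtc. A probe set met the rule at a difference of at least 1 log2 unit with a gap between sides above both within-side differences. With 1 array a group no test was possible, and the number of arrays limits the precision.

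Of 18769 probe sets that are not controls, 13647 had 1 gene symbol in the platform annotation, 402 several and 4720 none. Symbols were updated through the RefSeq Release 6 gene table (13544 matched, 103 kept the annotation's symbol), which gave 11982 genes, each read from its brightest probe set (1094 had several). Named genes are Crtc, the 15 highest and 15 lowest that met the rule at 50 or more, the 8 largest bounds, the 5 widest within-side differences of each side and up to 4 members of each of 45 gene lists with the largest differences, plus further members as markers. The sides, members and lists were chosen with earlier results of these data known. Alternatives were other floors, scalings, thresholds and brightness minimums, the mean over a gene's probe sets, and each array left out. The calculation was tested on simulated data. Python 3.11.15, numpy 2.4.6, pandas 2.3.3, scipy 1.17.1 and matplotlib 3.10.9 were used.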

Additional observations from a re-analysis of the deposited data

Results flagged for a closer look

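For 4 genes at 50 or more on all arrays the difference between the mutant and the WT control and that between the Rescue control and the neuronal rescue had opposite signs and were each at least 2-fold. These differences in direction were not tested. Act88F, the flight muscle actin, gave -5.16 and 3.44 log2 units, from signals of 87.4, 6806.6, 3116.1 and 626.5. Acp65Aa, an adult cuticle protein, gave -1.72 and 1.45, from 109.4, 160, 359.2 and 58.5. ImpL2, a secreted protein that binds insulin-like peptides, gave -1.19 and 1.36, from 189.2, 562.8, 432.1 and 219.6. The gene ltl, which encodes a leucine-rich repeat protein, gave -1.29 and 1.38, from 173.6, 174, 423.8 and 66.7. The difference between the sides was -0.86 for Act88F, -0.13 for Acp65Aa, 0.08 for ImpL2 and 0.05 for ltl, and the sides overlapped in all 4.

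The probe sets for added Bacillus transcripts, which enter no comparison, were near one level for the mutant (geometric mean signal 44.0) and the WT control (45.2), and near a higher one for the Rescue control (173) and the neuronal rescue (153). The levels pair the arrays across the sides and not within them.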

How the results depend on the processing

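No paired analysis was possible because each labelled group holds 1 array and the labels tie no array of one side to an array of the other. The pairs used for the counts with like added transcripts come from control probe sets, not from the design. No gene of the 47 that met the rule turned direction, but list medians did: of 36 medians, 13 turned sign after median centring, 22 after centring on head-cell genes and 2 after quantile normalization. Of these genes all 47 still met the rule with a floor of 7 or 28, and 34 after quantile normalization, 33 after median centring, 21 after centring on head-cell genes, 13 where every pair of arrays across the sides had to differ by 2-fold and 7 at a 3-fold threshold. Without one array the number kept was 32 (mutant), 42 (Rescue control), 34 (WT control) or 34 (neuronal rescue). Pdf was lost without the Rescue control or the WT control, and Jabba without the WT control.

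Counts of probe sets at 50 or more were 29 higher and 30 lower. They became 34 and 21 after quantile normalization, 12 and 41 after median centring, and 6 and 48 after centring on head-cell genes. At 1.5-fold they were 193 and 76, at 3-fold 2 and 9, and with no condition on the gap 83 and 59. With 2-fold between every pair across the sides they were 8 and 13. A minimum of 25 gave 42 higher and 56 lower, and a minimum of 100 gave 25 higher and 10 lower (71.4% higher). Leaving out each array in turn gave 39 to 131 higher and 38 to 78 lower, with both highest values without the neuronal rescue. A side of 1 array has no within-side difference, so the rule is looser there by construction. Over all probe sets the counts were 62 higher and 1222 lower. They became 88 and 1630 with a floor of 7, and 48 and 730 with a floor of 28. After quantile normalization they were 437 and 896, after median centring 31 and 1250, and after centring on head-cell genes 13 and 1151. At 1.5-fold they were 300 and 1395, and at 3-fold 7 and 971. With no condition on the gap they were 153 and 1564, and with 2-fold between every pair 22 and 1164. Leaving out each array gave 101 to 219 higher and 1280 to 1633 lower. Of the differences of named genes recomputed under each alternative, 1839 moved by less than the within-side spread and 221 by more, and of the list medians 334 and 26. Precision is limited by the number of arrays and by signal near the floor: on the Crtc-low arrays 53.3% and 54.6% of probe sets lay above 14.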

Other observations

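Gene families of detoxification were spread around 0 on both sides of the comparison. Of the 43 (of 81 measured) cytochrome P450 genes at 50 or more on all arrays, 18 had no overlap with the Crtc-low side higher and 6 with it lower (12 higher and 12 lower after median centring), and the median was 0.06, from -0.18 to 0.11 under the other scalings, so its sign turned under both centrings. Cyp4e3 had 6410.4, 5684.3, 2091.7 and 3727.3, a difference of 1.11 (0.17 and 0.83), and Cyp12a4 had 667.3, 599.5, 118.4 and 754, a difference of 1.08 (0.15 and 2.67). In both the arrays of the Crtc-expressing side differed too far for the rule. Of the 24 (of 34 measured) glutathione S-transferase genes, 6 had no overlap with the low side higher and 4 lower (5 higher and 7 lower after median centring), and GstE7 differed by 1.40 (0.17 and 1.32).

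Of the 17 (of 19 measured) antioxidant genes, 5 had no overlap with the low side higher and 3 lower (3 higher and 5 lower after median centring), and 0 met the rule. The transcription factor cnc, the fly Nrf2, had 145.1, 268, 702.4 and 310.4, a difference of -1.24 (0.89 and 1.18). Of the 16 (of 47 measured) odorant-binding protein genes, 4 had no overlap with the low side higher and 2 lower (4 higher and 5 lower after median centring), and Obp56e had 3058.9, 2434.9, 1510.5 and 1301, a difference of 0.96 (0.33 and 0.22) that fell just short of 2-fold. The 9 nicotinic acetylcholine receptor genes measured included 7 at 50 or more, with a median of 0.23, from 0.00 to 0.32. Among tubulins 3 of 8 were at 50 or more, and betaTub56D, the tubulin that most cells use, had 1610.4, 1737.2, 1597.2 and 1510.3, a difference of 0.11 (0.11 and 0.08).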
